A study of Mus musculus with 6 samples.

Results

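Fibroblast growth factor (FGF) ligands and receptors were followed in the inguinal white fat depot (iWAT) of mice carrying an *Hlx* transgene and of their wild-type littermates. They comprised 10 genes, taken by symbol from the 19445 loci of the gene table, and each symbol had 1 locus. The ligands were *Fgf1*, *Fgf2*, *Fgf7*, *Fgf10* and *Fgf21*, the kinase receptors *Fgfr1*, *Fgfr2* and *Fgfr3*, the co-receptor *Klb* (β-Klotho) and the kinase-less receptor *Fgfrl1*. RNA-Seq was done on 3 transgenic (TG) and 3 wild-type (WT) mice, 1 library each, to learn how far gene expression in iWAT was remodelled. The transgene places the *Hlx* cDNA, which encodes a homeodomain transcription factor, behind the *aP2* (*Fabp4*) promoter, which is active in brown and white adipocytes. Both groups were 12 weeks old and labelled male, had no other listed treatment, and the deposited values do not part transgene transcripts from those of the endogenous *Hlx* gene. Values are FPKM, which divides a gene's reads by the length of its transcript and by the size of the library, so levels of different genes can be set side by side.

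FGFs are secreted proteins that bind heparan sulfate and signal through receptor tyrosine kinases to the Ras-MAPK cascade. Paracrine members such as *Fgf1*, *Fgf2*, *Fgf7* and *Fgf10* act near their source, while the endocrine hormone encoded by *Fgf21* binds heparan sulfate weakly and needs *Klb* beside *Fgfr1*. In fat, *Fgf10* and *Fgf2* are known as factors acting on preadipocytes, *Fgf1* is known for its role in remodelling of the depot with diet, and *Fgf21* is known for promoting thermogenic gene expression.

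*Hlx* was at 109.7, 79.6 and 99.5 FPKM in the TG mice and at 6.88, 7.35 and 8.14 FPKM in the WT mice, a log2 fold change of 3.51 (limma adjusted p = 0.000106, 0.13 standard error). *Xist*, an RNA that female cells make from their silenced X, lay at 20.2 to 33.6 FPKM in all 6 libraries, and 28 of 28 Y-linked loci were listed at 0, both against the label male. FPKM summed to between 466059 and 542096 per library. The absolute depth is unknown, and relative depth, taken from the spacing of low values, was 0.714, 1.14 and 0.692 in the TG and 0.943, 1.41 and 1 in the WT libraries, with WT 3 as the reference. Only 12.7% to 15.8% of the low values compared lay at the spacing used, and these depths are estimates. Skeletal muscle markers, which should be low in fat, summed to 78.3, 573 and 115 FPKM in TG and to 7.19, 121 and 35.4 FPKM in WT libraries, so TG 2 stood apart, and all calls of FGF genes below were kept without it. Adipocyte markers summed to 28397 to 33562 FPKM in TG and to 24534 to 30458 FPKM in WT libraries, of which *Fabp4* made up 77.3% to 87.5%. Without *Fabp4* the sums were 3837 to 4401 and 5236 to 6918 FPKM, and 2 of the 6 markers, *Adipoq* and *Lpl*, were lower. The part of this in the levels of the FGF genes was not tested.

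One ligand rose and 4 of the FGF genes fell in TG iWAT. *Fgf1* was 2.78 times as high on average in TG as in WT mice, while *Fgf10*, *Fgf2*, *Fgfr1* and *Fgfr2* were 1.73, 1.51, 1.45 and 2.22 times as high in WT as in TG mice. *Fgf7*, *Klb* and *Fgfrl1* did not pass the test, and *Fgf21* and *Fgfr3* were under 1 FPKM on average in both genotypes. The test was a limma fit to log2(FPKM + 1), and p-values were adjusted by Benjamini-Hochberg over the 11692 loci whose mean exceeded 1 FPKM in either genotype or both. 8 of the 10 FGF genes passed this filter. Of all loci tested, 11.6% were higher, 7.03% were lower and 18.6% were called in either direction, beside 1 higher and 4 lower among the 8 FGF genes. TG and WT values did not overlap at 5 of the 10 FGF genes, 1 higher and 4 lower, all of them among the 8 past the filter. Nor did they at 42.9% of the loci tested, 22.8% higher and 20.1% lower. The median log2 fold change was -0.37 over the 8 FGF genes and -0.01 over all loci tested. With TG 3 or WT 3 left out, 2 of the 8 were lower in place of 4. An exact permutation test of 3 against 3 mice cannot give a two-sided p under 0.1, and this was its value for each of the 5 called genes. In whole tissue, fewer cells of a type and less RNA per cell cannot be told apart.

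**Figure D1:**
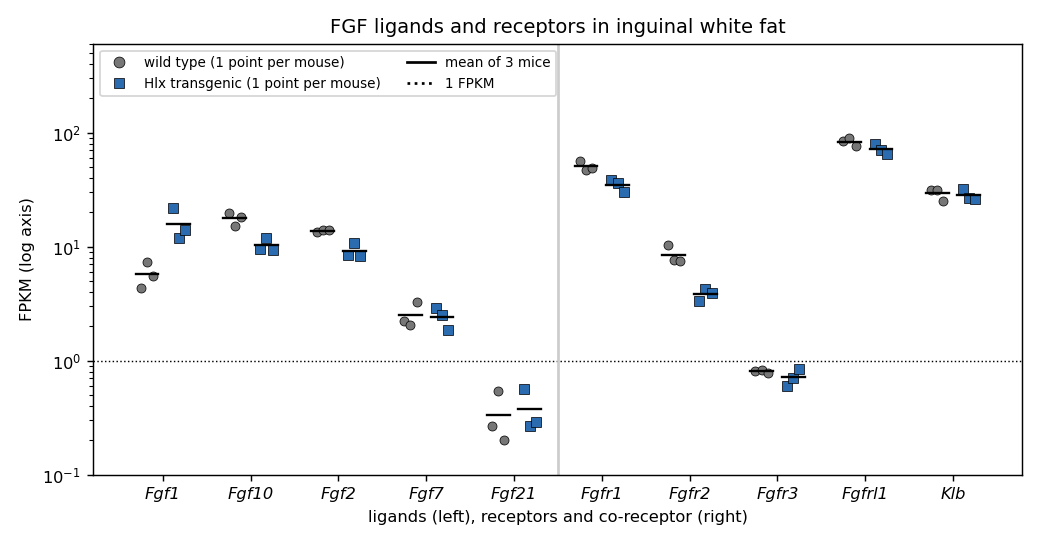
FPKM (log axis) of the 5 ligands and the 5 receptors and co-receptor genes, with 1 point per mouse and a bar at the mean of 3 mice. WT and TG points separate at *Fgf1*, *Fgf10*, *Fgf2*, *Fgfr1* and *Fgfr2* and overlap at the other genes, and the dotted line marks 1 FPKM.

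*Fgf1* encodes the ligand that binds every FGF receptor and lacks a classical signal peptide. It was at 21.7, 12.0 and 14.1 FPKM in the TG mice and at 4.30, 7.34 and 5.55 FPKM in the WT mice. The lowest TG value lay above the highest WT value, and TG 1 was the highest of all. The means were 15.9 ± 5.15 and 5.73 ± 1.53 FPKM (SD, n = 3 mice each). The log2 fold change, which on this scale understates changes of low genes, was 1.31 (limma adjusted p = 0.0122, 0.24 standard error, 95% interval 0.74 to 1.88). *Fgf1* lies on chromosome 18 of mm10 from 38838673 to 38971274, in a locus that overlaps *Arhgap26* on the opposite strand. The libraries do not record strand, but the annotated exons of the pair share 0 bases, and *Arhgap26* had means of 4.98 FPKM in TG and 5.07 FPKM in WT mice (log2 fold change -0.02, limma adjusted p = 0.901). Brown and beige adipocyte markers were also higher in TG mice: 6 of 7 were called higher, beside 11.6% of all loci tested. *Dio2* was not called (log2 fold change -0.37, limma adjusted p = 0.576). The 7 markers summed to 6127 to 7930 FPKM in TG and 611 to 1051 FPKM in WT libraries. Within the WT mice this sum did not follow *Fgf1*, at 1051, 611 and 702 FPKM in WT 1, WT 2 and WT 3. Of 6 Schwann cell and nerve markers, 3 were higher (*S100b*, *Ngfr* and *Mbp*), with sums of 119 to 149 FPKM in TG and 57.9 to 65.6 FPKM in WT libraries. Without *S100b* these sums overlapped, at 55.5 to 81.9 and 55.1 to 62.5 FPKM, and *Sox10* and *Cnp* had log2 fold changes of -0.27 and -0.32 (limma adjusted p of 0.659 and 0.0956). The part of either list in the level of *Fgf1* was not tested.

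*Fgf10* encodes a ligand made by mesenchymal cells that acts mainly on the epithelial isoform of *Fgfr2*. It was at 9.64, 12.0 and 9.27 FPKM in the TG mice and at 19.9, 15.3 and 18.1 FPKM in the WT mice, so every TG value lay below every WT value. This was a log2 fold change of -0.73 (limma adjusted p = 0.0105, 0.13 standard error, 95% interval -1.04 to -0.43). Its locus runs on chromosome 13 from 118714699 to 118792573.

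*Fgf2*, or basic FGF, encodes a widely expressed mitogen that, like *Fgf1*, lacks a signal peptide. It was at 8.39, 10.8 and 8.25 FPKM in the TG mice and at 13.4, 14.0 and 14.0 FPKM in the WT mice. The WT mice lay close together, and all TG mice lay below them, with a log2 fold change of -0.55 (limma adjusted p = 0.0160, 0.11 standard error, 95% interval -0.81 to -0.30). The call was lost without TG 3, WT 2 or WT 3, with limma adjusted p of 0.0583, 0.0540 and 0.0568. *Fgf2* lies on chromosome 3 from 37348153 to 37419590 and shares 640 of its 6782 exon bases, or 9.44%, with *Nudt6* on the opposite strand. *Nudt6* had means of 24.4 FPKM in TG and 23.5 FPKM in WT mice (log2 fold change 0.05, limma adjusted p = 0.803), and reads from the shared bases cannot be told apart between the pair.

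*Fgf7*, or keratinocyte growth factor, is the mesenchymal ligand most closely related to *Fgf10*. It was at 2.90, 2.50 and 1.86 FPKM in the TG mice and at 2.23, 2.04 and 3.27 FPKM in the WT mice. The groups overlapped, with a log2 fold change of -0.03 (limma adjusted p = 0.904, 0.17 standard error, 95% interval -0.44 to 0.38). Its sign changed without TG 3 (0.09) or WT 3 (0.11). The table's *Fgf7* locus, on chromosome 2 from 125859218 to 126146251, also spans *Galk2* and *Fam227b*. The annotated exons of *Fgf7* share 0 bases with those of either gene.

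*Fgf21* RNA was near the limit of what these libraries resolve. It was at 0.568, 0.267 and 0.293 FPKM in the TG mice and at 0.269, 0.538 and 0.203 FPKM in the WT mice. After scaling by relative depth, these values were whole multiples of a common step (within 0.02 of a step), as whole reads would leave. If 1 step is 1 read, they stand for 8, 6 and 4 reads in TG and 5, 15 and 4 reads in WT libraries. On the same reckoning *Fgf7* had 85 to 216 and *Fgf10* 752 to 2543 reads per library, while the other 7 FGF genes gave no common step. In a fit without the filter, the log2 fold change of *Fgf21* was 0.04 (limma adjusted p = 0.846, 0.12 standard error, 95% interval -0.25 to 0.34), so no difference was detectable at this depth. The locus lies on chromosome 7 from 45613890 to 45615490.

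The makeup of the ligand RNA differed more than its sum. The 5 ligands together came to 33.7 to 43.2 FPKM in TG and 39.3 to 41.1 FPKM in WT libraries, and these ranges overlapped. *Fgf1* made up 50.3%, 31.9% and 41.7% of that sum in the TG mice against 10.7%, 18.7% and 13.5% in the WT mice. *Fgf10* made up 22.3% to 31.9% in TG and 39.0% to 49.6% in WT libraries, and *Fgf2* 19.4% to 28.8% and 33.4% to 35.7%. In all 3 WT mice the order was *Fgf10*, *Fgf2*, *Fgf1*, *Fgf7* and *Fgf21*. *Fgf1* came first in TG 1 and TG 3, and in TG 2 it stood just under *Fgf10*, at 11.96 against 11.99 FPKM. Shares of 1 sum are not independent, since a rise of *Fgf1* lowers the others, and they were not tested.

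**Figure D2:**
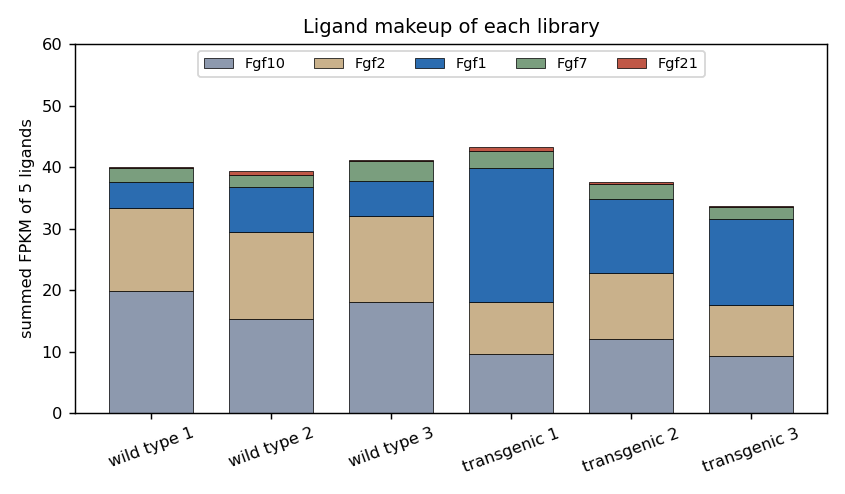
Summed FPKM of the 5 ligands in each library, with 1 stacked bar per mouse. The bars are of like height, between 33.7 and 43.2 FPKM, while the *Fgf1* segment takes 31.9% to 50.3% of the TG bars and 10.7% to 18.7% of the WT bars.

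*Fgfr1* encodes the main kinase receptor of adipocytes and their precursors and the partner of β-Klotho. It was at 38.5, 36.5 and 30.1 FPKM in the TG mice and at 56.1, 47.4 and 49.5 FPKM in the WT mice, without overlap. Its log2 fold change was -0.53 (limma adjusted p = 0.0225, 0.12 standard error, 95% interval -0.81 to -0.26). The call was lost without TG 3, WT 1 or WT 3, with limma adjusted p of 0.0614, 0.0622 and 0.0624. The locus runs on chromosome 8 from 25518732 to 25577056.

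*Fgfr2* encodes a receptor whose epithelial and mesenchymal isoforms bind different ligands, and the table does not separate the isoforms. It was at 3.34, 4.24 and 3.94 FPKM in the TG mice and at 10.5, 7.65 and 7.42 FPKM in the WT mice. All TG values lay below all WT values. The log2 fold change was -0.96 (limma adjusted p = 0.00554, 0.14 standard error, 95% interval -1.30 to -0.63), and this was the one FGF gene called at an adjusted p under 0.01. Epithelial markers, which a mammary duct in inguinal fat would bring, summed to 147, 211 and 324 FPKM in the TG mice and to 336, 274 and 260 FPKM in the WT mice. Of 11 tested epithelial markers limma called 0 (2 at an unadjusted p under 0.05), and *Wap* was listed at 0. TG 1 and TG 2 lay below every WT mouse in this sum and TG 3 within the WT range, and the part of epithelial cells in the level of *Fgfr2* was not tested. The locus lies on chromosome 7 from 130162451 to 130266808.

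*Fgfr3*, which is best known from cartilage, was at 0.598, 0.707 and 0.853 FPKM in the TG mice and at 0.819, 0.835 and 0.788 FPKM in the WT mice. The groups overlapped, and the fit without the filter gave a log2 fold change of -0.08 (limma adjusted p = 0.468, 0.07 standard error, 95% interval -0.24 to 0.08). *Klb*, the co-receptor that gives FGF21 its cell specificity, was at 32.2, 26.8 and 26.0 FPKM in the TG mice and at 31.5, 31.7 and 25.0 FPKM in the WT mice. These ranges overlapped almost wholly, with a log2 fold change of -0.05 (limma adjusted p = 0.805, 0.13 standard error, 95% interval -0.35 to 0.25), whose sign changed without TG 3 (0.00871), WT 1 (0.00286) or WT 2 (0.00792). The *Klb* locus runs on chromosome 5 from 65348125 to 65386946 and that of *Fgfr3* from 33721724 to 33737068.

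*Fgfrl1* encodes a receptor that binds FGFs but lacks the tyrosine kinase domain. It was the most abundant of the 10 genes, at 80.4, 71.1 and 65.5 FPKM in the TG mice and at 84.0, 89.1 and 75.9 FPKM in the WT mice. TG 1 lay within the WT range and the others below it. The log2 fold change was -0.20 (limma adjusted p = 0.223, 0.11 standard error, 95% interval -0.45 to 0.05). Its locus in the table, on chromosome 5 from 108669106 to 108707457, also spans *Dgkq*, *Idua* and *Slc26a1*. The annotated exons of *Fgfrl1* and *Idua* share 0 bases, and those of *Dgkq* and *Slc26a1* were not compared.

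**Figure D3:**
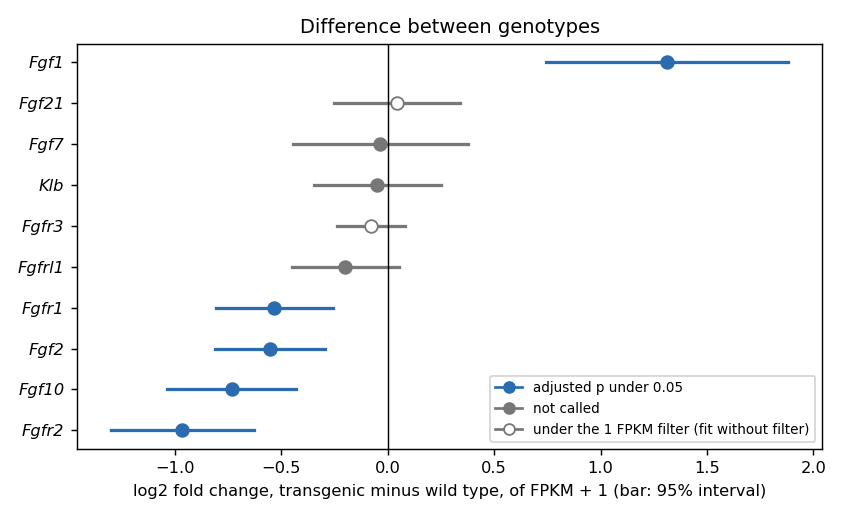
Log2 fold change of log2(FPKM + 1), TG minus WT, with the 95% interval of the limma fit, for the 10 FGF genes. *Fgf1* lies at 1.31 and the intervals of *Fgfr1*, *Fgf2*, *Fgf10* and *Fgfr2* lie wholly below 0, while open points mark *Fgf21* and *Fgfr3* from the fit without a filter.

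In WT iWAT the mean levels fell in the order *Fgfrl1*, *Fgfr1*, *Klb*, *Fgf10*, *Fgf2*, *Fgfr2*, *Fgf1*, *Fgf7*, *Fgfr3* and *Fgf21*, and no neighbours in this order overlapped. In TG iWAT *Fgf1* moved above *Fgf10*, *Fgf2* and *Fgfr2*. The ranges of *Fgfr1* and *Klb* overlapped there, as did those of *Fgf1* and *Fgf10* and of *Fgf10* and *Fgf2*.

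Of the other cell types below, macrophage markers had a lower sum in TG mice, as had the 4 genes that fell lower levels, and the sums of the others overlapped between genotypes. Of all loci tested, 11.6% were higher and 7.03% were lower. Macrophage markers summed to 352 to 503 FPKM in TG and 746 to 946 FPKM in WT libraries, with 3 of 6 lower (*Cd68*, *Csf1r* and *Lyz2*). Lymphocyte markers summed to 211 to 322 and 310 to 446 FPKM, with 1 of 9 lower. Fibroblast and progenitor markers summed to 1445 to 2034 and 1741 to 2358 FPKM, with 0 of 10 called by limma (2 at an unadjusted p under 0.05). Endothelial markers, with 2 higher and 1 lower of 8, summed to 167 to 177 and 165 to 172 FPKM. Smooth muscle and pericyte markers, with 0 of 6 called by limma (0 at an unadjusted p under 0.05), summed to 149 to 257 and 186 to 266 FPKM. The part of these cells in the levels of the FGF genes was not tested.

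The sequence before the start of the genes that fell is shown for those with an entry among RefSeq promoters (GRCm38.p6). Action of the transgene on these genes was not tested. *Fgf10*, *Fgf2* and *Fgfr2* had an entry, while *Fgf1*, which rose, and *Fgfr1* had none. The window of *Fgf2* lies inside the table's locus and is not printed. Each line is 250 bases before the RefSeq start, read 5′ to 3′ on the gene's strand. GENCODE places the gene's start farther out, at 118669791 for *Fgf10* and at 133123350 for *Fgfr2*. The GENCODE span of *Fgfr2* overlaps many other coding genes, *Ate1* and *Ctbp2* among them, and its far end is not taken here as the gene's usual start. Both printed windows thus lie inside the GENCODE genes. Capitals mark TAAT or its reverse complement ATTA, the core of many homeodomain sites, and GGGCGG or its reverse complement CCGCCC, the GC box. The windows are chr13:118714449-118714698 on the plus strand for *Fgf10* and chr7:130266809-130267058 on the minus strand for *Fgfr2*.
Fgf10: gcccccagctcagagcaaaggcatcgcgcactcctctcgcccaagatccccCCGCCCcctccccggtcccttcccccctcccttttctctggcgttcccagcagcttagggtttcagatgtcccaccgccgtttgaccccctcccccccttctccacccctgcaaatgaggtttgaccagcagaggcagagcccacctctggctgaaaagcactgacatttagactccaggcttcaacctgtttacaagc
Fgfr2: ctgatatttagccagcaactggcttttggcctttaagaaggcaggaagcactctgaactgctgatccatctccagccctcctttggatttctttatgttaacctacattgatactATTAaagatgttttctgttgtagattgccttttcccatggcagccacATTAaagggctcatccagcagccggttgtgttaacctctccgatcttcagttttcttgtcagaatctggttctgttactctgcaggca

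*Fgfr2* had 2 matches of TAAT and 0 of GGGCGG in this window, and *Fgf10* had 0 and 1, as had *Fgf2*. On both strands, TAAT was found in 54.9% of the 32851 RefSeq windows of this length and GGGCGG in 32.7%. The longer palindrome TAATTA, found in 4.84% of all windows, and the TATA box TATAAA, found in 12.4%, had 0 matches in the 3 windows. The GC content of the window was 61.2% for *Fgf10*, 62.4% for *Fgf2* and 44% for *Fgfr2*, with a median of 52.4% over all windows. Common short words of this kind are a description of the sequence and not binding sites.

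Other genes of the pathway were taken from 9 lists of 103 genes, of which 99 were matched by symbol and 73 passed the filter. Of these, 2 were higher and 6 were lower, or 2.74% and 8.22%, beside 11.6% and 7.03% of all loci tested. The median log2 fold change of the 73 was -0.10. Both higher genes, *Ucp1* and *Ppargc1a*, came from the list of fat genes known to respond to FGF21 and are also among the brown and beige markers above. No gene of the other lists was called higher. *Adipoq*, 1 of the 6 lower genes, is also among the adipocyte markers. Of the 13 other FGF ligands, 4 were listed at 0 in all libraries (*Fgf3*, *Fgf6*, *Fgf8* and *Fgf15*), and *Fgf18* alone passed the filter, with a log2 fold change of 0.16 (limma adjusted p = 0.446). It was named after its value was seen.

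*Fgf13*, a gene of the intracellular FGF homologs that bind sodium channels and are not secreted, fell most of the pathway genes. It was at 4.57, 2.56 and 2.43 FPKM in the TG mice and at 8.49, 17.9 and 13.7 FPKM in the WT mice. The groups did not overlap, and the means were 3.18 ± 1.20 FPKM in TG and 13.4 ± 4.70 FPKM in WT mice (SD, n = 3 each). The log2 fold change was -1.76 (limma adjusted p = 0.00808, 0.28 standard error), and the call held in all 15 other settings tried for it. *Fgf11*, of the same group, had a log2 fold change of -0.10 (limma adjusted p = 0.618).

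Heparan sulfate is the cofactor that FGFs and their receptors bind together. Of the 13 tested enzymes that build or trim it, 4 were lower, beside 7.03% of all loci tested. At an unadjusted p under 0.05 there were 7 of these enzymes, in both directions, and the share of all loci tested at that cut was not taken. Of 10 proteoglycan core proteins limma called 0 (4 at an unadjusted p under 0.05). *Sulf2*, an extracellular sulfatase that removes 6-O-sulfates from heparan sulfate, was at 24.4, 21.6 and 24.5 FPKM in the TG mice and at 62.7, 48.2 and 54.9 FPKM in the WT mice. All TG values lay below all WT values, with a log2 fold change of -1.19 (limma adjusted p = 0.00113), and the call held in all 15 other settings tried. The related sulfatase *Sulf1* (-0.51), the 3-O-sulfotransferase *Hs3st1* (-0.59) and the glycosyltransferase *Extl3* (-0.44) passed with limma adjusted p of 0.0268, 0.0458 and 0.0280. These 3 calls depended on single mice, and some of them on the processing. *Hs3st1* lost its call without any 1 of the 6 mice (limma adjusted p of 0.0562 to 0.131), *Extl3* without any 1 but TG 1 (0.0597 to 0.0878) and *Sulf1* without TG 1, TG 3, WT 2 or WT 3 (0.0611 to 0.0863). Without the filter *Hs3st1* and *Sulf1* lost their calls (limma adjusted p of 0.0766 and 0.0535), as did *Hs3st1* with sample quality weights (0.0657).

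*Flrt2* and *Flrt3*, whose proteins bind FGF receptors, and *Fgfbp3*, whose protein binds FGF ligands, had log2 fold changes of -0.23, -0.34 and -0.20, with limma adjusted p of 0.297, 0.260 and 0.608. Below the receptors, limma called 0 of 19 adaptor and Ras-MAPK genes, 0 of 11 feedback inhibitors and 0 of 10 transcriptional targets, with list medians of 0.07, 0.02 and -0.12. At an unadjusted p under 0.05 these counts were 6, 2 and 2. The share of all loci tested at that cut was not taken, so counts at it are not read as a result. The feedback inhibitors at that cut were the phosphatase gene *Dusp4* (log2 fold change 1.00, limma adjusted p = 0.0752) and *Spry4* (0.46, limma adjusted p = 0.0626). *Dusp4* was at 25.6, 13.3 and 8.97 FPKM in the TG mice, highest in TG 1. The adaptor, Ras-MAPK and target genes at that cut went both ways. *Ptpn11*, *Crk*, *Map2k1* and *Ier3* had positive and *Grb2*, *Gab1*, *Plcg1* and *Ier2* negative log2 fold changes. All of these were named after their values were seen. Of 7 fat genes known to respond to FGF21, *Ucp1* (4.12, limma adjusted p = 0.00106) and *Ppargc1a* (0.51, limma adjusted p = 0.0122) were higher. The adipokine gene *Adipoq* (-0.85, limma adjusted p = 0.0172) was lower. At an unadjusted p under 0.05 the count was 4, with *Slc2a1* (-0.38, limma adjusted p = 0.0564) uncalled and named after its value was seen. The call of *Adipoq* was lost without TG 3 or WT 2 (limma adjusted p of 0.0688 and 0.0560) and without the filter (0.0814).

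**Figure D4:**
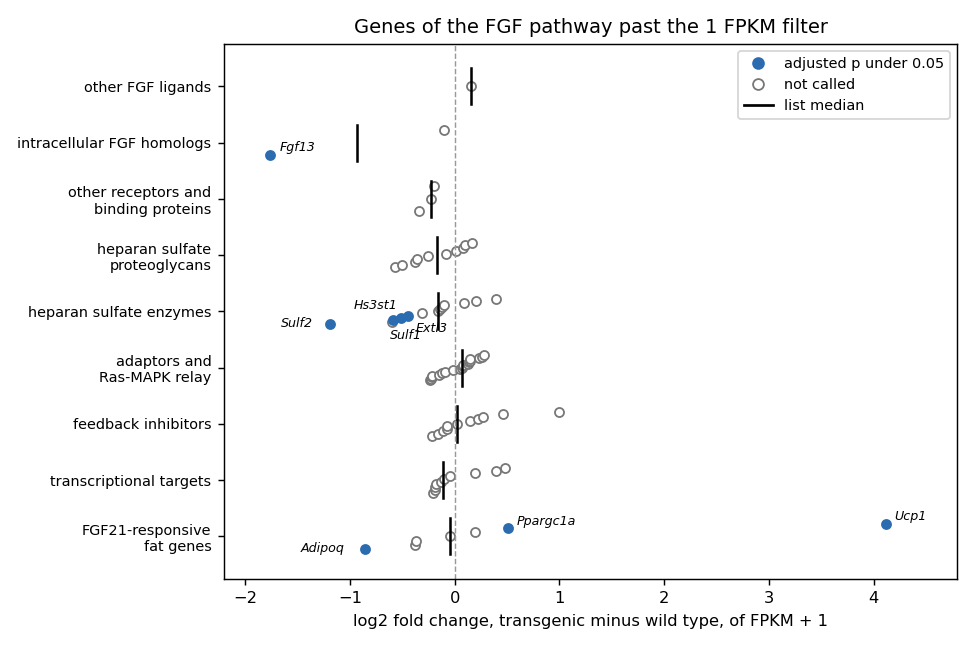
Log2 fold change of log2(FPKM + 1), TG minus WT, of the 73 pathway genes past the filter, by list, with 1 point per gene, a bar at the list median and filled points for an adjusted p under 0.05. *Fgf13* at -1.76 and *Sulf2* at -1.19 lie lowest, and *Ucp1* at 4.12 lies highest.

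The genes most like each called FGF gene over the 6 libraries were read from Pearson's r of log2(FPKM + 1) over 11475 symbols. Values of r this high are common, since the 6 libraries fall into the same genotypes for every gene: 125 to 341 symbols had an r over 0.95 with each of the 5 genes. For *Fgf1* they were *Nol3*, *Rhbdd1* and *Mettl22* (r 0.997 to 0.999) and for *Fgf10* *Cnpy3*, *Adcy5* and *Papln* (0.994 to 0.9998). For *Fgf2* they were *Erp29*, *Eid2* and *Rab31*, for *Fgfr1* *Lysmd2*, *Dtx2* and *Apoe*, and for *Fgfr2* *Vnn3*, *Nid1* and the shared locus of *Ear2* and *Ear3*.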

How the data were processed

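RNA was extracted from iWAT of 3 *Hlx* transgenic mice and 3 wild-type littermates. The authors made TruSeq libraries, which do not record strand, and sequenced them as single-end reads of 100 bases. Per the submitters' processing notes, CASAVA 1.8.2, TopHat2 2.0.9, Bowtie2 2.1.0 and Cufflinks 2.2.1 were used with mm10, and the authors deposited FPKM per gene and library. Options and annotation are not given in the sources used here. Reads and counts were not used here.

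Of 19445 loci, the 11692 whose mean exceeded 1 FPKM in either genotype or both were taken to log2(FPKM + 1) and fitted in R 4.3.3 by limma 3.58.1 (lmFit, eBayes with trend, two-sided, Benjamini-Hochberg adjustment, adjusted p under 0.05, no covariates). An exact permutation test over 20 arrangements was run for each FGF gene on the same scale. Counts at an unadjusted p under 0.05 have no share of all loci beside them and are not read as results. Python 3.11.15 and matplotlib 3.10.9 served for the figures. The fit was tested on simulated data. Overlaps with other genes come from GENCODE exons of the same build, and p-values measure the spread between mice.

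All FGF genes are named. Pathway genes were named where called, at most 4 per list and direction, with homologs and receptor or ligand-binding genes past the filter, and the 3 symbols most like each called gene. The FGF genes and all lists were chosen with earlier results of these data known. Alternatives were a pseudocount of 0.1, no filter, a filter on the mean over both genotypes, median-ratio scaling, quantile normalization, sample quality weights, eBayes with no trend, a replicate block, summed loci of a symbol, each mouse left out in turn, and stricter calls (adjusted p under 0.01, or a 2-fold ratio of means in addition).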

Additional observations from a re-analysis of the deposited data

Results flagged for a closer look

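*Fgf16*, a ligand outside the 10 genes and under the filter on low values, had a mean of 0.255 FPKM in TG mice (0.240, 0.184 and 0.342) and lay above the level of the WT mice (0.0558, 0.0744 and 0.0789). Read as whole reads, these values stand for 13, 16 and 18 reads in TG and 4, 8 and 6 reads in WT libraries. In the fit without a filter its log2 fold change came to 0.23 (limma adjusted p = 0.0358, 0.05 standard error). That fit called 1151 of 15860 loci higher, and *Fgf16* was picked after its values were seen.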

How the results depend on the processing

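The calls of *Fgf1* (log2 fold change 1.08 to 1.48), *Fgf10* (-0.84 to -0.65) and *Fgfr2* (-1.12 to -0.82) were kept in each of the 15 settings tried for single genes, with limma adjusted p up to 0.0466, 0.0424 and 0.0274. At an adjusted p under 0.01, 0 FGF genes were higher and 1 was lower, 569 loci were higher and 199 lower, and 1 pathway gene was higher and 2 lower. With a 2-fold ratio of means in addition, 1 FGF gene was lower, 413 loci were higher and 204 lower, and 1 pathway gene was higher and 2 lower. Without a filter 3 pathway genes were lower. With each mouse left out in turn, 2 to 4 FGF genes were lower, 780 to 1295 loci were higher and 329 to 906 lower, and 2 to 3 pathway genes were higher and 2 to 7 lower. The sign of *Fgf7* changed without TG 3 (0.09) or WT 3 (0.11) and that of *Klb* without TG 3 (0.00871), WT 1 (0.00286) or WT 2 (0.00792), and with any 1 mouse left out they ranged from -0.13 to 0.11 and from -0.16 to 0.00871, uncalled throughout. With the replicate number as a block, 1 FGF gene was higher and 4 were lower, and *Sulf1* lost its call (limma adjusted p = 0.0625). Same-numbered libraries did not deviate together (r 0.013 to 0.070 over 3 pairs), so the numbers were not taken to pair the mice. *Fgf21* and *Fgfr3* have a fold change only without the filter. The few reads of *Fgf21* limit its comparison. Apart from the stricter calls, which take fewer genes by construction, and the mice left out, the cause of the changes was not tested.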
